A study of Homo sapiens with 12 samples.

Results

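Thymidine kinase 1 (TK1) and 7 other genes that supply or degrade deoxynucleotides were followed as exon and intron counts in libraries labelled as the ovarian cancer line TYK-nu. The 8 genes are TK1, TYMS, RRM1, RRM2, DTYMK, DUT, DCK and SAMHD1, out of 17508 genes in the deposited table. TK1 was selected on its intron counts, which were higher with cisplatin at 72 h, and the other 7 were listed for their known role in deoxynucleotide metabolism. The values of TK1 in comparisons that use the 72 h libraries are therefore descriptions without a test. TYK-nu cells had been grown with 15 μM cisplatin, a platinum drug that crosslinks DNA, or with DMSO as vehicle control, for 24 or 72 h. Each of the 4 groups held 3 replicate libraries of poly(A)-selected RNA, 12 in all. The labels speak of cells of the one line grown and treated in triplicate, and the study's methods speak in general of independent repeats without saying how these libraries relate to them. The p-values therefore measure the spread between these libraries, part of which may be technical.

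DNA synthesis needs a balanced supply of the 4 deoxynucleoside triphosphates, and this supply rises when cells enter S phase. Ribonucleotide reductase, built from the large subunit RRM1 and the small subunit RRM2, makes deoxynucleotides from ribonucleotides. Thymidylate comes either from TYMS, which methylates dUMP, or from TK1, which phosphorylates salvaged thymidine, and DTYMK phosphorylates it once more. DUT removes dUTP before it enters DNA and leaves the dUMP that TYMS uses, DCK starts the salvage of deoxycytidine and the purine deoxynucleosides, and SAMHD1 breaks deoxynucleoside triphosphates down. Several of these genes are known as targets of E2F transcription factors, whose activity rises in late G1.

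The promoters are shown for TK1, the gene picked on its intron counts, for RRM2 and TYMS, which fell between 24 and 72 h, and for SAMHD1, which rose. Each line gives the 250 bases before the start site on the strand of the gene, read from 5′ to 3′ in the RefSeq promoter table for GRCh38.p14, in which all 8 genes were found. The 4 stretches are chr17:78187053-78187302 on the minus strand for TK1, chr2:10122489-10122738 on the plus strand for RRM2, chr18:657403-657652 on the plus strand for TYMS and chr20:36951709-36951958 on the minus strand for SAMHD1. Capitals mark the CCAAT box and the E2F motif TTTNNCGC, read on both strands.
TK1: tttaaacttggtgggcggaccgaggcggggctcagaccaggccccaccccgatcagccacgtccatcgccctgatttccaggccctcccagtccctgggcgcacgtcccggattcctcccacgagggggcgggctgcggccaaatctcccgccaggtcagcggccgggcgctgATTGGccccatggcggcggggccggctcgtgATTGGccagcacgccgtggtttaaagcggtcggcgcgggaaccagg
RRM2: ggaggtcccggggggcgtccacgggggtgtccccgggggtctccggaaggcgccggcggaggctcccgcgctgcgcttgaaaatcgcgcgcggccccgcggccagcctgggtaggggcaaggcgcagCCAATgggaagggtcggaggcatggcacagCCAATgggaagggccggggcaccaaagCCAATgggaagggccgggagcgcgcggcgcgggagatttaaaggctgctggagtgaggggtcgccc
TYMS: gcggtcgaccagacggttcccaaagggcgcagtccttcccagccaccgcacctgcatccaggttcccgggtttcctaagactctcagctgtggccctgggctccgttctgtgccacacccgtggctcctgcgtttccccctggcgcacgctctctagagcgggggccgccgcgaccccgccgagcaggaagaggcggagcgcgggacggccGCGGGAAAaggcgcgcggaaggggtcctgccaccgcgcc
SAMHD1: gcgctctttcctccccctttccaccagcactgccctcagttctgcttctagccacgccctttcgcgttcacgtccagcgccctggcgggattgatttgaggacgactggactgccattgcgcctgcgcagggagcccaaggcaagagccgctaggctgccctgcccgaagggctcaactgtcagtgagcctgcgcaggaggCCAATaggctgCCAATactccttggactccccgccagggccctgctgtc
RRM2 held 3 CCAAT boxes, which began 123, 93 and 66 bases before its start site. TK1 held 2, at 77 and 46 bases, and SAMHD1 also held 2, at 49 and 38 bases. TYMS held no CCAAT box and was the only one of the 8 promoters with the E2F letters, 39 bases before the start. CCAAT was present in 5 of the 8 promoters and in 32.0% of 35116 RefSeq promoter windows of the same length, and TTTNNCGC was present in 5.92% of those windows. The GC box GGGCGG was found in 5 of the 8 promoters against 42.6% of all windows, and the cell cycle homology element TTTGAA in 1, that of RRM1, against 13.3%. The CCAAT letters were present in SAMHD1, which rose, in RRM1, RRM2 and DTYMK, which fell, and in TK1. Their part in these changes was not tested.

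Libraries held between 18526830 and 68753262 counts in total, of which 6.26% to 7.17% were intron counts, and no pair of libraries had identical exon counts. Markers were read against the labelled type in exon CPM. These are exon counts scaled to the exon total of the library, adjusted by its TMM normalization factor. Of 11 epithelial and serous ovarian markers, 9 were in the table and 4 reached 1 CPM in every library. These 4 were KRT18 at 133 to 181 CPM, KRT8 at 11.0 to 34.5 CPM, the serous ovarian marker WT1 at 1.59 to 4.19 CPM and KRT19 at 1.19 to 2.79 CPM. EPCAM did not pass 1.68 CPM, KRT7 0.303 CPM and PAX8 0.0758 CPM, and CDH1 and SOX17 had no exon counts. Of 4 mesenchymal markers VIM lay at 6774 to 8453 CPM, ZEB1 at 177 to 286 CPM and FN1 at 34.3 to 55.4 CPM, and CDH2 had no exon counts. The endothelial adhesion genes PECAM1 and CDH5 were high, at 1350 to 2491 CPM and 658 to 1046 CPM, while VWF stayed at or below 1.2 CPM. Of 7 other endothelial genes, listed after the values were seen, TIE1, ESAM, KDR, ROBO4 and TEK lay between 135 and 2571 CPM, ERG at 4.47 to 7.11 CPM and EMCN at no more than 0.0956 CPM. The labelled serous ovarian type was thus met by some of its markers and not by others, with PECAM1 and CDH5 high in all 4 groups, and the origin of the cells was not tested. The summed level of the 3 endothelial markers was 3355 to 3478 CPM at 24 h and 2033 to 2307 CPM at 72 h, and that of the mesenchymal markers was 6989 to 7657 CPM at 24 h and 8238 to 8759 CPM at 72 h. The epithelial and serous ovarian sum was 179 to 201 CPM at 24 h and 170 to 191 CPM at 72 h. Within it, in DMSO, EPCAM (log2 2.34 ± 0.37) and KRT8 (log2 1.29 ± 0.09) rose and WT1 (log2 -0.78 ± 0.22) and KRT18 (log2 -0.37 ± 0.05) fell. In cisplatin EPCAM, KRT8 and KRT18 changed in the same directions, and WT1 was not called (log2 -0.26 ± 0.21, edgeR adjusted p = 0.291). Markers of each of these types thus moved with time, and their part in the results on time was not tested. Immune markers summed to no more than 0.905 CPM and fibroblast markers to no more than 0.213 CPM in any library, and the leukocyte gene PTPRC had no exon counts. The immune gene CD14 was not in the table and the fibroblast gene DCN had no exon values, so neither entered these sums.

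The first comparison asks how the 8 genes changed between 24 and 72 h of culture. In DMSO, exon counts of TYMS, RRM1, RRM2, DTYMK, DUT and DCK fell and those of SAMHD1 rose, so that all 7 tested genes changed. In cisplatin the same 6 genes fell and SAMHD1 rose, again 7 of 7 (edgeR quasi-likelihood test, Benjamini-Hochberg adjusted p under the threshold of 0.05). Over all 10444 genes tested, 32.5% fell and 32.6% rose in DMSO, and 31.5% fell and 32% rose in cisplatin. The median log2 change of exon counts over the 8 genes was -0.87 in DMSO and -0.84 in cisplatin, against 0.02 over all genes in both. In RNA from whole cultures, fewer cells of a type and less RNA per cell cannot be told apart.

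Ribonucleotide reductase changed most. RRM2, the subunit whose level is known to limit the enzyme in S phase, stood at 710, 744 and 794 exon CPM in DMSO at 24 h and at 186, 196 and 186 CPM in DMSO at 72 h. Every 72 h library was thus well below every 24 h library. The log2 change was -1.98 ± 0.05 (SE, n = 3 per group), a 3.96-fold fall (edgeR, adjusted p = 4.3e-19). In cisplatin RRM2 went from 780, 721 and 780 CPM to 219, 212 and 214 CPM, a 3.53-fold fall (edgeR, adjusted p = 2.45e-18). RRM1, the catalytic partner, fell less, from 266, 270 and 289 CPM to 111, 116 and 110 CPM in DMSO. This was a 2.45-fold fall (log2 -1.29 ± 0.05, edgeR adjusted p = 8.42e-16), and in cisplatin it was 2.20-fold (log2 -1.14 ± 0.05, edgeR adjusted p = 8.45e-15).

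The thymidylate genes were lower at 72 h by different amounts. TK1 exon counts were 186, 173 and 165 CPM in DMSO at 24 h and 81.5, 80.3 and 83.4 CPM in DMSO at 72 h. The 2 groups did not overlap, and the difference was 2.14-fold (log2 -1.10 ± 0.06, described only). TYMS went from 92.9, 90.7 and 86.3 CPM to 33.0, 40.2 and 37.9 CPM, a 2.43-fold fall (log2 -1.28 ± 0.07, edgeR adjusted p = 2.59e-13). DTYMK, which acts on the product of both, went from 176, 168 and 159 CPM to 127, 124 and 114 CPM, a 1.38-fold fall (log2 -0.47 ± 0.05, edgeR adjusted p = 6.71e-08). DUT, the dUTPase, went from 45.1, 41.8 and 40.0 CPM to 30.5, 30.9 and 28.1 CPM, a 1.42-fold fall (log2 -0.51 ± 0.08, edgeR adjusted p = 2.49e-06). In cisplatin the corresponding log2 changes were -0.90 ± 0.06 for TK1, -1.04 ± 0.07 for TYMS, -0.55 ± 0.05 for DTYMK and -0.51 ± 0.08 for DUT.

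The deoxycytidine kinase gene DCK stood at 49.4, 50.7 and 52.5 exon CPM in DMSO at 24 h and at 30.2, 36.5 and 30.8 CPM at 72 h. It fell 1.57-fold in DMSO (log2 -0.65 ± 0.07, edgeR adjusted p = 5.12e-08) and 1.72-fold in cisplatin (log2 -0.78 ± 0.07, edgeR adjusted p = 2.05e-09). SAMHD1 ran the other way, from 107, 97.0 and 100.0 CPM to 188, 151 and 170 CPM in DMSO, with no overlap. It rose 1.67-fold in DMSO (log2 0.74 ± 0.07, edgeR adjusted p = 1.7e-09) and 1.65-fold in cisplatin (log2 0.72 ± 0.07, edgeR adjusted p = 3.03e-09). The gene that breaks deoxynucleotides down was therefore the one of the 7 tested that rose at both treatments.

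**Figure D1:**
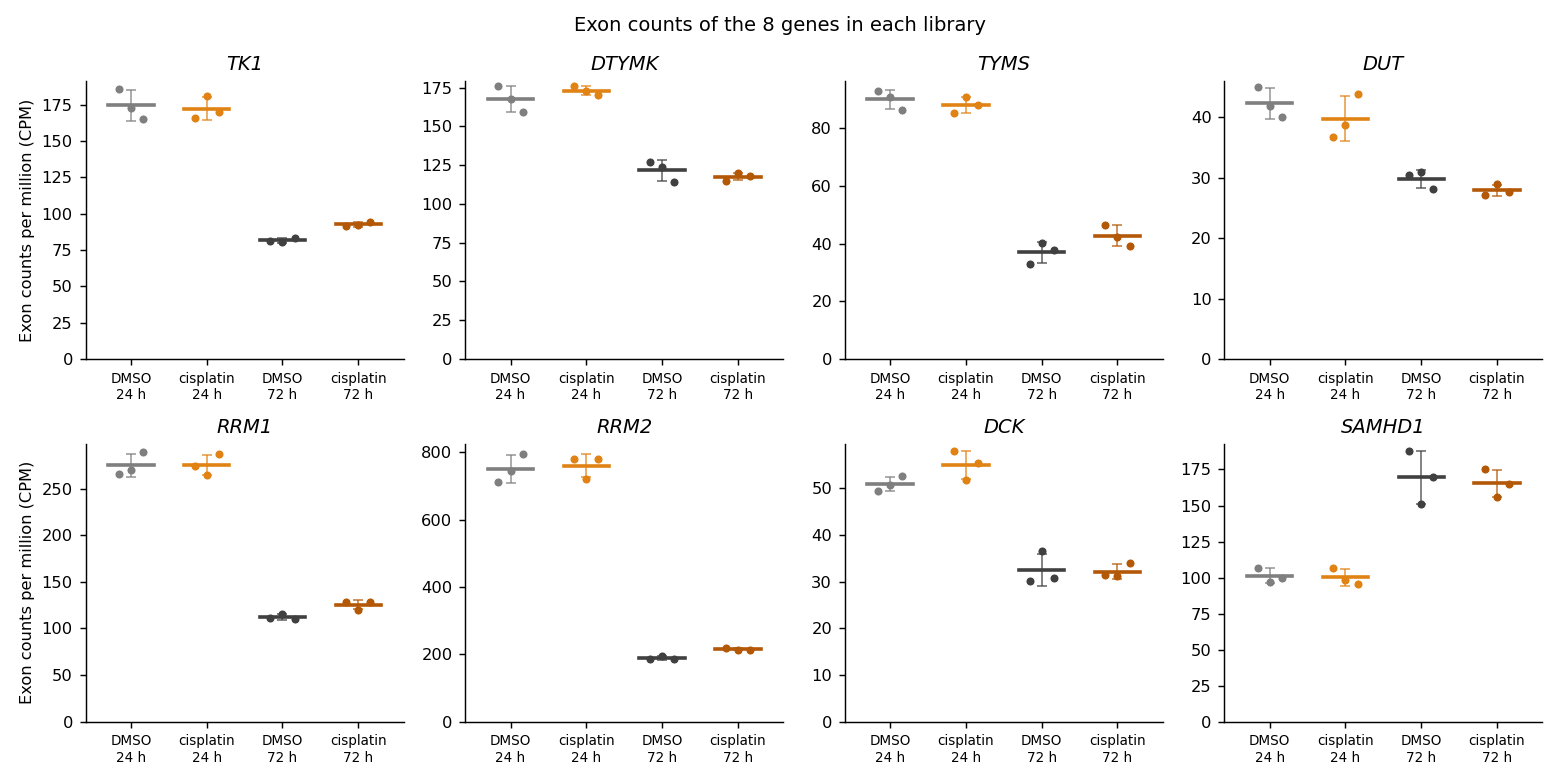
Exon CPM (vertical axis from 0) of the 8 genes in each of the 12 libraries, by group (horizontal axis). Counts were scaled to all exon counts of the library, adjusted by its TMM factor. Points are libraries, horizontal lines are group means and error bars are 1 SD (n = 3). RRM2 falls from 710 to 794 CPM in DMSO at 24 h to 186 to 196 CPM in DMSO at 72 h, while SAMHD1 rises from 97.0 to 107 CPM to 151 to 188 CPM.

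Levels can be compared between the genes only per length of mRNA, here as mean exon CPM per kilobase of the canonical transcript. In DMSO at 24 h the order of levels was RRM2 at 230 ± 12.9 (SD, n = 3), DTYMK at 160 ± 8.21, TK1 at 122 ± 7.5, RRM1 at 87.5 ± 4.02 and TYMS at 55.8 ± 2.08. SAMHD1 at 21.8 ± 1.12, DCK at 20.3 ± 0.614 and DUT at 19.8 ± 1.2 followed and overlapped with each other. In DMSO at 72 h DTYMK was first at 116 ± 6.36 CPM per kilobase. RRM2 at 58.1 ± 1.77 and TK1 at 57.1 ± 1.11 no longer differed beyond their spread. SAMHD1 at 36.5 ± 3.96 stood beside RRM1 at 35.7 ± 1.02, above TYMS at 23.0 ± 2.29, DUT at 13.9 ± 0.717 and DCK at 13.0 ± 1.38. SAMHD1 thus moved from the level of DCK and DUT to that of RRM1, and RRM2 from the first place to that of TK1.

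Intron counts, that is, fragments that fall in annotated introns, changed in the same direction as the exon counts with time. Which RNA these fragments come from was not tested. Intron CPM is scaled to the intron counts of the library alone, adjusted by a TMM factor of the intron counts. Of the 7 tested genes, 5 fell (TYMS, RRM1, RRM2, DTYMK and DUT), SAMHD1 rose and DCK did not pass the test, in DMSO and in cisplatin alike (edgeR with Benjamini-Hochberg adjustment). Of 9618 genes tested, 16.2% fell and 17.2% rose in DMSO, and 15.4% fell and 16.4% rose in cisplatin. RRM2 intron counts were 65.0, 63.5 and 67.1 CPM in DMSO at 24 h and 9.96, 14.9 and 8.56 CPM at 72 h, a log2 change of -2.58 ± 0.22 (edgeR, adjusted p = 1.37e-14). SAMHD1 intron counts went from 6.87, 8.63 and 15.5 CPM to 29.3, 20.9 and 23.6 CPM, a log2 change of 1.29 ± 0.29 (edgeR, adjusted p = 0.000423). TK1 intron counts were 52.3, 44.7 and 48.7 CPM in DMSO at 24 h and 6.44, 16.5 and 8.56 CPM at 72 h, a log2 difference of -2.23 ± 0.24. DCK rested on 3 to 32 intron counts per library, and its log2 changes of -0.90 ± 0.51 in DMSO and -0.25 ± 0.45 in cisplatin were not distinguishable from 0 at this depth. Without DMSO replicate 2 at 24 h the first of these was -0.16, and with single libraries left out the second ranged from -0.64 to -0.01.

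**Figure D2:**
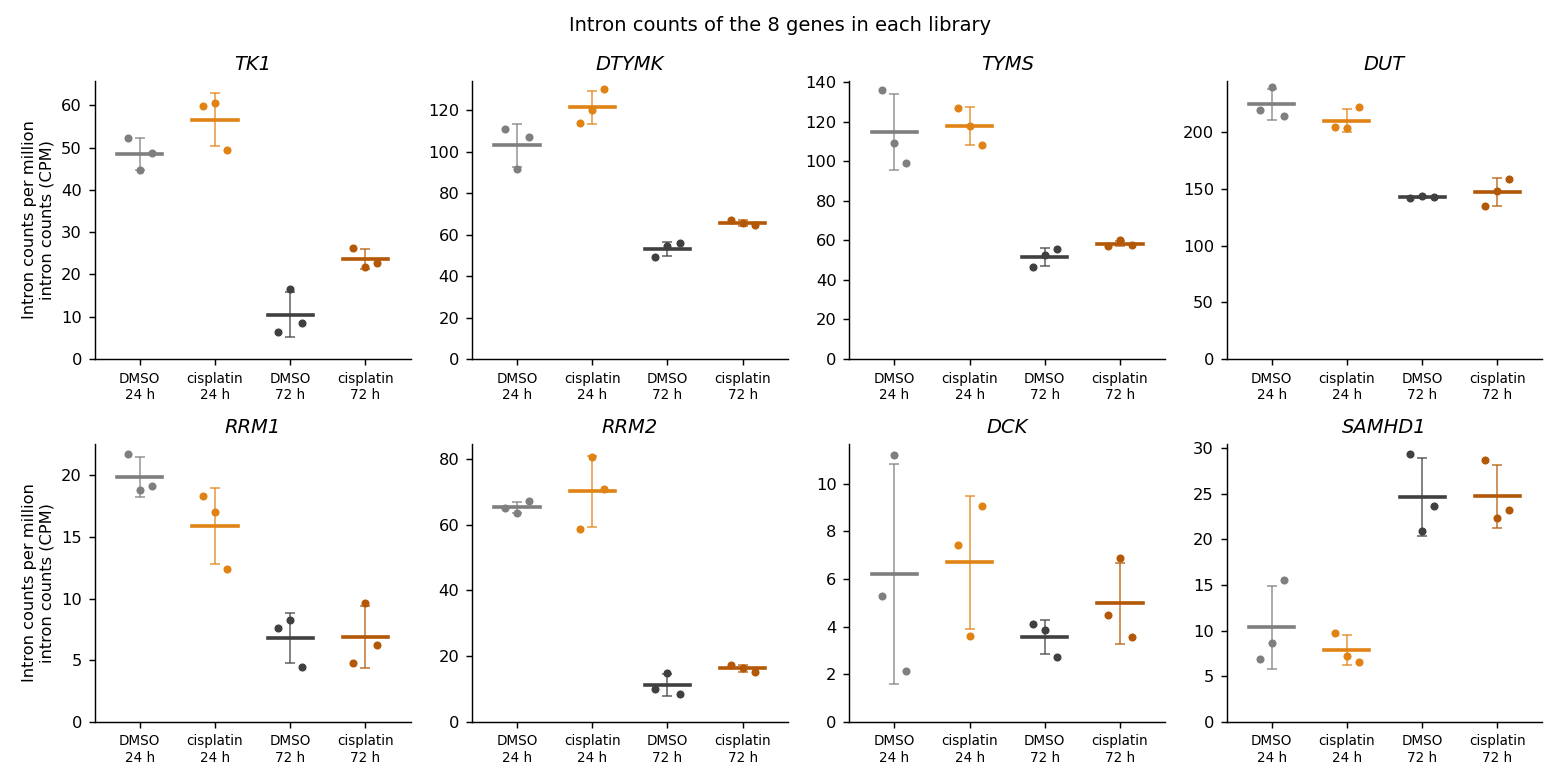
Intron CPM (vertical axis from 0) of the 8 genes in each of the 12 libraries, by group (horizontal axis). Counts were scaled to all intron counts of the library, adjusted by its TMM factor. Points are libraries, horizontal lines are group means and error bars are 1 SD (n = 3). In TK1, the 3 DMSO libraries at 72 h lie at 6.44 to 16.5 CPM, below the 3 cisplatin libraries at 72 h at 21.7 to 26.3 CPM.

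Cisplatin was then compared with DMSO at each time. At 24 h, 0 of the 8 genes changed in exon counts (edgeR, none at an unadjusted p under 0.05, 0 by DESeq2), where 0% of all 10444 genes were called and 2.49% had such an unadjusted p. Their log2 changes lay between -0.10 for DUT and 0.11 for DCK. In intron counts, too, 0 of the 8 genes changed at 24 h (edgeR, 0 at an unadjusted p under 0.05, 0 by DESeq2), against 0.0208% of 9618 genes called and 5% at an unadjusted p. TK1 intron counts with cisplatin at 24 h were 59.9, 60.6 and 49.5 CPM against 52.3, 44.7 and 48.7 CPM in DMSO, which overlapped (log2 0.24 ± 0.20, edgeR adjusted p = 0.973). The difference for which TK1 was chosen at 72 h was thus not detected at 24 h in these libraries.

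At 72 h, 0 of the 7 tested genes changed in exon counts by edgeR, against 0.0287% of all genes. In 3 of the 7, namely RRM1, RRM2 and TYMS, the unadjusted p was under 0.05, against 12.6% of all genes, and DESeq2 called 1 of the 7, RRM2, against 0.756%. RRM2 stood at 219, 212 and 214 exon CPM with cisplatin and at 186, 196 and 186 CPM in DMSO, so that the groups did not overlap. The log2 change was 0.18 ± 0.05 (edgeR adjusted p = 0.164, DESeq2 adjusted p = 0.0423). RRM1 stood at 128, 120 and 128 CPM against 111, 116 and 110 CPM, also without overlap (log2 0.16 ± 0.05, edgeR adjusted p = 0.251). TYMS stood at 46.6, 42.3 and 39.3 CPM against 33.0, 40.2 and 37.9 CPM, which overlapped (log2 0.21 ± 0.07, edgeR adjusted p = 0.26), and without DMSO replicate 1 the log2 change was 0.13 (edgeR adjusted p = 0.649). TK1 stood at 91.2, 92.2 and 94.4 CPM against 81.5, 80.3 and 83.4 CPM, without overlap (log2 0.18 ± 0.06, described only).

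The other 4 genes, DTYMK, DUT, DCK and SAMHD1, had log2 changes of exon counts between -0.09 and -0.02 at 72 h, all with overlapping groups. With single libraries left out, the change ranged from -0.065 to 0.07 in DCK and from -0.116 to 0.038 in SAMHD1, and it stayed negative in DTYMK and DUT. At 72 h the lowest cisplatin library was above the highest DMSO library in 2 of the 7 genes, RRM1 and RRM2, against 8.85% of all genes tested. Whether the effect of cisplatin differed between 24 and 72 h was tested as an interaction, and 0 of the 7 genes passed for exon counts (edgeR, smallest adjusted p = 0.501, 0 by DESeq2). RRM1, RRM2 and TYMS had an unadjusted p under 0.05 in that test, 3 of 7 against 9.43% of all genes, with log2 differences of 0.16, 0.16 and 0.24.

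TK1 intron counts at 72 h are the values by which the gene was picked. They were 26.3, 21.7 and 22.8 CPM with cisplatin and 6.44, 16.5 and 8.56 CPM in DMSO, from 88, 101 and 51 counts against 11, 30 and 25 counts. The DMSO group was both lower and more spread, and replicate 2 was its highest library. The log2 difference was 1.18 ± 0.25, and without DMSO replicate 2 it was 1.60. TK1 was the last of 4 genes inside the adjusted threshold, 0.0416% of all genes tested, with TMEM237 (log2 -0.61 ± 0.11) just before it. The genes just outside were EIF3C (log2 -1.13 ± 0.25) and FLT3LG (log2 -1.71 ± 0.38). These ranks describe how TK1 was picked and are not a test of it. The number of genes inside the threshold was 2 by DESeq2 and 3 to 9 with single libraries left out.

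None of the other 7 genes passed the same comparison of intron counts (0 by edgeR and 0 by DESeq2, 2 at an unadjusted p under 0.05, against 6.47% of all genes). RRM2 stood at 17.3, 16.3 and 15.2 intron CPM with cisplatin and at 9.96, 14.9 and 8.56 CPM in DMSO, without overlap (log2 0.59 ± 0.24, edgeR adjusted p = 0.704). DTYMK stood at 67.2, 65.7 and 64.4 CPM against 49.2, 54.5 and 55.8 CPM, also without overlap (log2 0.30 ± 0.14, edgeR adjusted p = 0.728). TYMS, at 57.3 to 59.9 CPM against 46.3 to 55.5 CPM, did not overlap either (log2 0.17 ± 0.15, edgeR adjusted p = 0.903). The lowest cisplatin library was thus above the highest DMSO library in 3 of the 7 genes, RRM2, DTYMK and TYMS, against 6.35% of all genes tested. The log2 change of intron counts was 0.58 ± 0.48 in DCK, 0.13 ± 0.36 in RRM1, 0.04 ± 0.10 in DUT and 0.01 ± 0.24 in SAMHD1. With single libraries left out it ranged from 0.39 to 0.84 in RRM2, from 0.10 to 0.23 in TYMS, from 0.24 to 0.73 in DCK and from -0.26, without cisplatin replicate 2, to 0.34 in RRM1. In the interaction test of intron counts 0 of the 7 genes passed (edgeR, 0 at an unadjusted p under 0.05, against 5.71% of all genes, 0 by DESeq2).

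**Figure D3:**
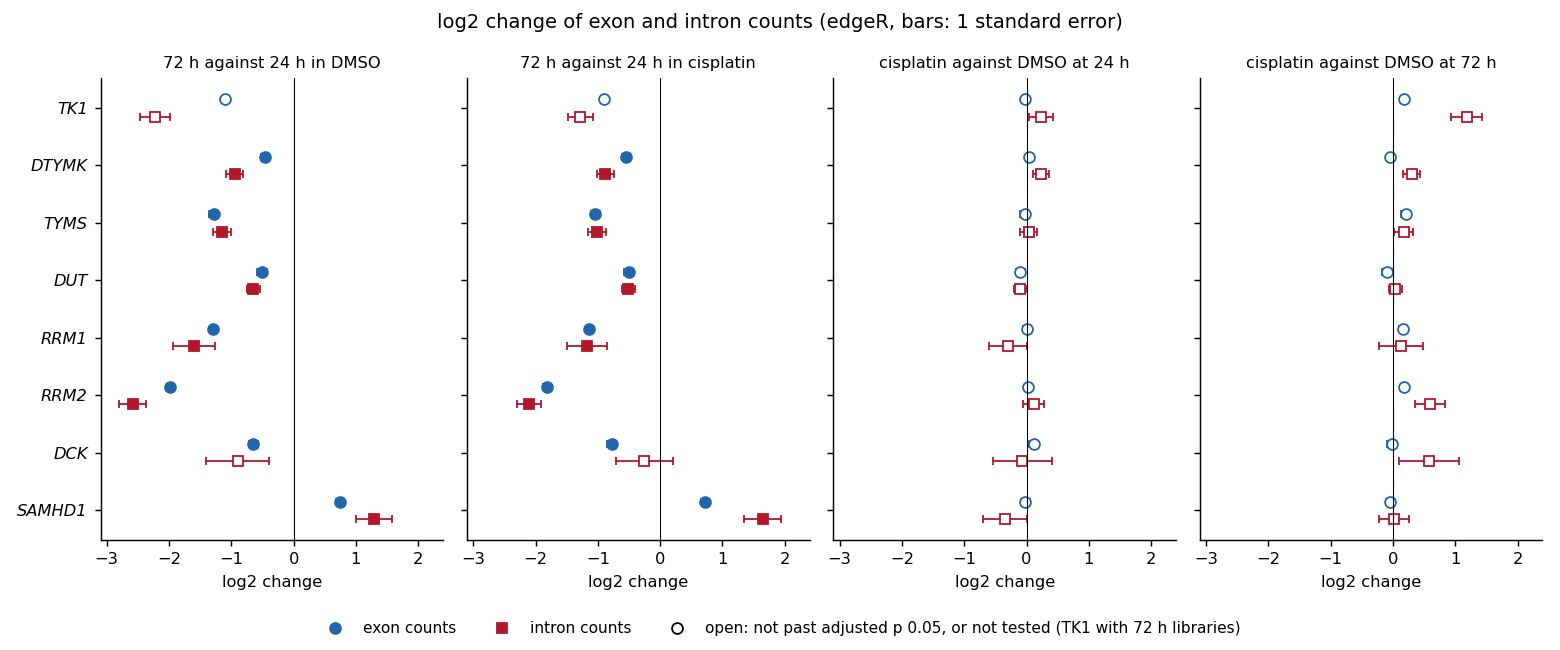
Log2 change (horizontal axis) of exon counts (circles) and intron counts (squares) of the 8 genes in the 4 comparisons, with bars of 1 standard error from edgeR. Filled symbols passed the adjusted threshold of 0.05, and open symbols did not or, for TK1 with 72 h libraries, were not tested. With time 6 of the 7 tested genes lie left of 0 in exon counts and SAMHD1 lies right, while with cisplatin no symbol is filled.

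The study compared the exon/intron ratio, the number of exon counts per intron count of a gene. In TK1 this ratio was 49.0, 56.5 and 44.3 in DMSO at 24 h, 36.2, 36.8 and 48.6 in cisplatin at 24 h, 187, 70.6 and 140 in DMSO at 72 h and 48.7, 58.5 and 55.2 in cisplatin at 72 h. The DMSO libraries at 72 h thus stood above the other 9 libraries, which lay between 36.2 and 58.5. At 72 h the ratio differed between cisplatin and DMSO by a log2 value of -1.09 ± 0.25, and in DMSO it differed between 72 and 24 h by 1.20 ± 0.24. These comparisons share the DMSO libraries at 72 h. Without DMSO replicate 2 at 72 h they were -1.51 and 1.63. At 24 h, where TK1 was tested, the log2 change of the ratio with cisplatin was -0.35 ± 0.19 (edgeR adjusted p = 0.812).

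With cisplatin, edgeR called a changed ratio in 0 of 8 genes at 24 h (0 at an unadjusted p under 0.05, against 6.33% of all genes), where 0% of 9393 genes were called, and in 0 of 7 at 72 h, against 0.0213%. At 72 h 2 of the 7, DTYMK and RRM2, had an unadjusted p under 0.05, against 6.24% of all genes. DTYMK had a ratio of 24.1, 25.2 and 24.5 with cisplatin at 72 h and of 38.0, 33.1 and 29.2 in DMSO, without overlap (log2 -0.42 ± 0.15, edgeR adjusted p = 0.708). The logistic regression that the study's methods name counts each fragment as independent. It called TK1 and DTYMK at 24 h, 2 of 8 genes against 11.5% of all genes, and DTYMK at 72 h, 1 of 7 against 11.4%. All of these calls were toward a lower ratio with cisplatin, as were 1036 of the 1110 calls over all genes at 24 h and 971 of 1144 at 72 h. The median log2 change of the ratio over all genes was -0.106 at 24 h and -0.073 at 72 h in this regression. In edgeR it was -0.086 and -0.084. Without replicate 2 of DMSO or of cisplatin at 24 h the logistic regression called 0 of the 8 genes at that time, and the share of all genes called fell too, to 5.18% and 2.53%. Without DMSO replicate 2 or 3 or cisplatin replicate 1 at 72 h it called 2 of 7, against 8.75% to 11.3% of all genes. With a quasi-binomial spread between libraries, the same regression called 0 of the 8 genes at 24 h and 0 of the 7 at 72 h. It then called 0 of all genes at either time.

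With time in DMSO, edgeR called a higher ratio in 2 of 7 genes, RRM2 and DTYMK, against 8.08% of all genes, and a lower ratio in 0, against 3.37%. RRM2 had a ratio of 150, 171 and 155 at 24 h and of 276, 192 and 312 at 72 h (log2 0.68 ± 0.22, edgeR adjusted p = 0.0422). DTYMK had a ratio of 21.7, 26.8 and 19.5 at 24 h and of 38.0, 33.1 and 29.2 at 72 h (log2 0.54 ± 0.15, edgeR adjusted p = 0.0179). Each call was lost without any one of 4 libraries and held without either of the other two. RRM2 lost it without replicate 1 or 3 of either time (log2 0.50 to 0.66, edgeR adjusted p of 0.0852 to 0.26), and DTYMK without replicate 1 or 3 at 24 h or replicate 1 or 2 at 72 h (log2 0.45 to 0.54, edgeR adjusted p of 0.0556 to 0.0915). The median log2 change of the ratio over all genes was 0.10.

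In cisplatin the ratio of SAMHD1 was lower at 72 h, at 85.5, 96.0 and 94.9 against 143, 167 and 205 at 24 h. This was the 1 call among 7 genes (log2 -0.84 ± 0.25, edgeR adjusted p = 0.0291), against 3.57% of all genes called lower and 8.39% called higher. It was lost without any one of the 3 libraries at 24 h or without replicate 1 or 2 at 72 h (edgeR adjusted p of 0.0511 to 0.108). In DMSO the log2 change of SAMHD1 was -0.49 ± 0.26 (edgeR adjusted p = 0.238), and it was -0.87 (edgeR adjusted p = 0.0451) without DMSO replicate 3 at 24 h and -0.22 (edgeR adjusted p = 0.691) without replicate 1. The logistic regression called 3 of 7 genes with time in DMSO, RRM2, DTYMK and DUT, against 33.7% of all genes. In cisplatin it called 3 of 7, RRM2, DTYMK and SAMHD1, against 40.6%. Its quasi-binomial form called 0 of the 7 in either, where it called 64 of 9739 genes in DMSO and 97 of 9818 in cisplatin.

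**Figure D4:**
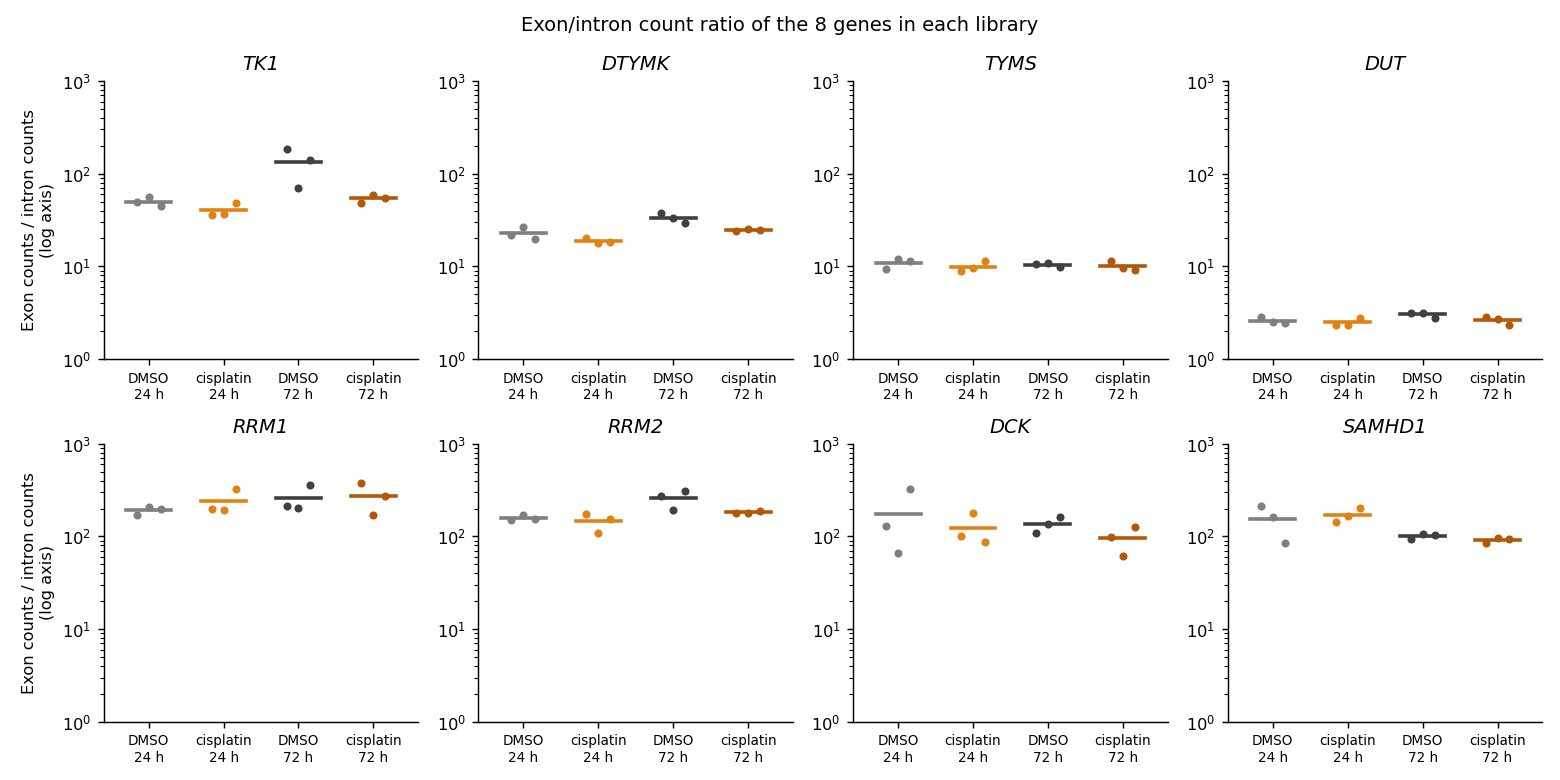
Exon counts divided by intron counts (vertical axis, log scale) of the 8 genes in each of the 12 libraries, by group (horizontal axis). Points are libraries and horizontal lines are group means (n = 3). In TK1 the 3 DMSO libraries at 72 h, at 70.6 to 187, lie above the other 9, and DUT has the lowest ratios of the 8 genes, at 2.32 to 3.17.

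The share of intron counts differed between the genes far more than between groups. In DMSO at 24 h introns held 27.8% ± 1.48 (SD, n = 3) of the counts of DUT, 8.43% ± 1.05 of TYMS, 4.29% ± 0.643 of DTYMK and 1.98% ± 0.235 of TK1. RRM1, RRM2, DCK and SAMHD1 each had under 1% on average. In the plot of exon/intron ratios, DUT therefore lies lowest.

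Several of the genes lie over others on GRCh38, and the strand option of the counting is not given in the sources used here. TYMS (chromosome 18, 657653 to 673578, plus strand) shares 3261 bases with ENOSF1 and 698 bases with TYMSOS, both on the minus strand. ENOSF1 exon counts were 20.8 CPM in DMSO at 24 h and 21.6 CPM at 72 h, while TYMS fell (log2 of ENOSF1 0.05 ± 0.08, edgeR adjusted p = 0.571). Intron counts of ENOSF1, at 279 and 322 CPM, were above those of TYMS, so TYMS intron counts are uncertain. DCK (chromosome 4, 70993649 to 71030914) shares 28801 bases with MOB1B on the same strand, and MOB1B had 2.93 to 3.12 mean exon CPM in the 4 groups. Mean intron counts of MOB1B, at 8.84 CPM or more in each group, were above those of DCK at 3.56 to 6.70 CPM, so DCK intron counts are uncertain too. SAMHD1 (chromosome 20, 36890229 to 36951708) shares 4007 bases with TLDC2, which reached no more than 0.14 exon CPM in any library. DUT, TYMS and RRM2 have processed pseudogenes, so a part of their reads could be split or lost in the counting. TK1 (chromosome 17, 78174091 to 78187052, minus strand) and DTYMK (chromosome 2, 241675747 to 241686815, minus strand) overlap no other annotated gene. RRM1 and DUT each overlap an antisense RNA that was not analysed here.

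The genes whose exon counts moved most like TK1 over the 12 libraries were MCM2 (Pearson r of log2 CPM 0.9995), SLCO4A1 (0.9985), UBA1 (0.9978), MCM5 (0.9977) and ACTB (0.9976), out of 9554 genes. The libraries share the 2 times, between which TK1 differed as given above, and the correlations within a time were not computed. MCM2, a subunit of the replicative helicase, stood at 477 ± 38.0 CPM in DMSO at 24 h, 473 ± 21.1 in cisplatin at 24 h, 193 ± 8.48 in DMSO at 72 h and 224 ± 5.36 in cisplatin at 72 h (SD, n = 3). Among the 8 genes RRM2 ranked 147, TYMS 156 and RRM1 159 in likeness to TK1, DTYMK ranked 749, DCK 1176 and DUT 1561. SAMHD1 ranked 8952, with an r of -0.962. These correlations are descriptions over libraries of 4 groups.

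Wider pathway lists were read beside the 8 genes, with exon counts in edgeR. Of 12 genes of de novo purine synthesis, 10 fell and 1 rose with time in DMSO, where 32.5% of all genes fell and 32.6% rose, with PFAS 2.33-fold and PRPS1 1.99-fold lower. Of 5 genes of de novo pyrimidine synthesis, 4 fell and none rose, among them CTPS1, which makes CTP, 1.90-fold lower, and CAD, which starts the pathway, 1.51-fold lower. In the thymidylate and folate cycle 5 of 10 fell and 4 rose, not far from those shares. SHMT1, the cytosolic serine hydroxymethyltransferase, fell 2.01-fold. SHMT2, its mitochondrial counterpart, rose 1.80-fold from 213 ± 13.5 to 383 ± 4.28 CPM (SD, n = 3). The cytosolic and mitochondrial SHMT genes thus moved in opposite directions, as TYMS and SAMHD1 did.

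Of 17 tested genes for salvage, interconversion and breakdown, 7 rose and 7 fell in DMSO, against 32.6% and 32.5% of all genes. The mitochondrial thymidine kinase TK2 rose 1.57-fold, from 2.83 ± 0.76 to 4.38 ± 0.759 CPM, while the cytosolic TK1 was lower, as given above. The nucleotidase NT5C rose 1.79-fold, the nucleoside transporter SLC29A1 fell 1.49-fold and the uridine-cytidine kinase UCK2 fell 1.45-fold. In cisplatin 5 of these 17 rose and 7 fell with time, against 32% and 31.5% of all genes. The median log2 changes in DMSO were 0.13 for this list, -0.17 for the folate list, -0.59 for pyrimidine and -0.48 for purine synthesis, against 0.02 over all genes.

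All 19 tested S phase and E2F target genes fell with time in DMSO, with a median log2 change of -1.30, and all 19 fell in cisplatin, with a median of -1.09, against 32.5% and 31.5% of all genes. UHRF1 fell 5.70-fold, CCNE2 5.08-fold, MCM4 4.27-fold and GINS2 3.39-fold in DMSO. All 12 G2/M genes fell in both, with medians of -0.74 and -0.74, and the proliferation marker MKI67 went from 315 ± 17.1 to 119 ± 11.7 CPM in DMSO, a 2.64-fold fall. Of 9 tested genes that control the 8 genes, 5 fell and 1 rose in DMSO, against 32.5% and 32.6% of all genes. E2F1 fell 2.51-fold, and CCNF, the cyclin that marks RRM2 for degradation, fell 2.12-fold. The log2 changes of RRM1 (-1.29) and TYMS (-1.28) in DMSO thus lay near the median of the S phase list, and those of DTYMK (-0.47) and DUT (-0.51) near the medians of purine and pyrimidine synthesis.

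With cisplatin, 0 of the 84 list entries passed for exon counts at 24 h (edgeR, 0 at an unadjusted p under 0.05, 0 by DESeq2) or at 72 h (edgeR, 19 at an unadjusted p under 0.05, 3 by DESeq2). Over all genes at 72 h, 0.0287% were called by edgeR and 0.756% by DESeq2, and 12.6% had an unadjusted p under 0.05. At 72 h, 9 of the 19 S phase genes had an unadjusted p under 0.05, and the median log2 change of that list was 0.12. MCM2, at 224 ± 5.36 CPM against 193 ± 8.48 CPM (SD, n = 3), had a log2 change of 0.21 ± 0.06 (edgeR adjusted p = 0.154), close to those of RRM2 and TYMS. RRM2B, the alternative small subunit that p53 is known to induce, stood at 8.52 ± 0.637 CPM with cisplatin and 9.22 ± 0.198 CPM in DMSO at 72 h (log2 -0.12 ± 0.10, edgeR adjusted p = 0.657).

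**Figure D5:**
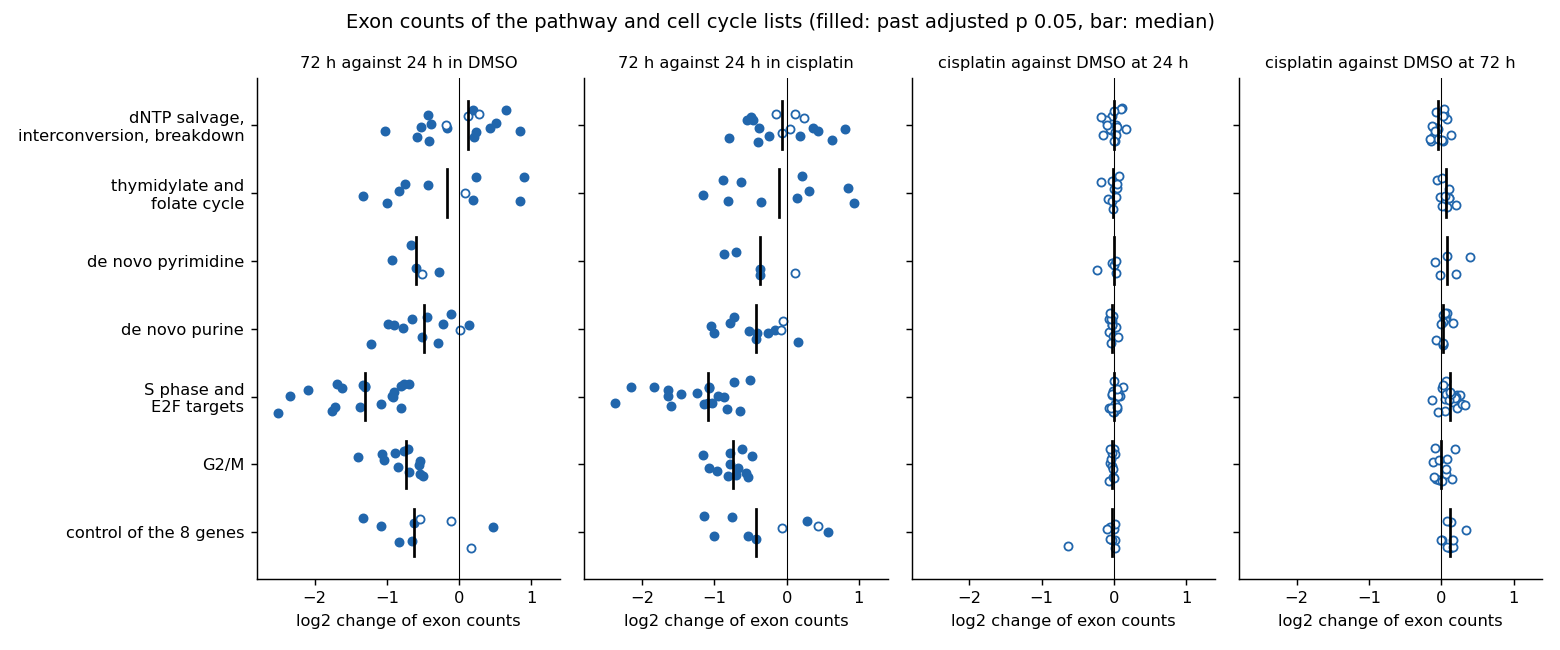
Log2 change of exon counts (horizontal axis) of each tested gene of the 7 pathway and cell cycle lists (rows) in the 4 comparisons. Points are genes, filled where the adjusted p passed 0.05, and vertical bars are list medians. With time all 19 S phase genes lie left of 0, with a median of -1.30 in DMSO, while with cisplatin no point is filled.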

How the data were processed

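Poly(A)-selected RNA was sequenced from 12 libraries. Per the study's methods and the submitters' processing notes, the authors trimmed reads with Trim Galore 0.6.0, aligned them to GRCh38 with HISAT2 2.1.0 and counted fragments with HTSeq over Ensembl release 98. Exons were counted in intersection-strict and introns in union mode. The deposited values are whole-number counts per gene and library. The strand option is not given in the sources used here.

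The 8 genes and the lists were chosen with earlier results of these data known. Symbols came from GENCODE release 44. Of 17508 genes, 423 had no exon and 913 no intron entry and were left out of the tests that need it. Exon counts, intron counts and the exon/intron ratio were tested with edgeR 4.0.16 (glmQLFit and glmQLFTest, R 4.3.3), with 12 libraries in 1 fit. TMM and filterByExpr were used, except for the ratio, which used library totals, 1 term per library and both kinds at 10 counts or more in 3 libraries. The study's binomial logistic regression was run on the 6 libraries of each comparison, where every library held both exon and intron counts (1 or more). P-values were adjusted over all genes (Benjamini-Hochberg, threshold 0.05). Standard errors are the log2 change divided by the root of F. Fits were tested on simulated data. Up to 4 genes per list and comparison were named, with the largest called changes at a mean of at least 50 exon counts, or else up to 2 with values only. Some genes that this rule names are not reported here. Alternatives were DESeq2 1.42.0, other normalizations and filters, the 6 libraries alone, the replicate number as a block and each library left out. Plots used matplotlib 3.10.9.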

Additional observations from a re-analysis of the deposited data

How the results depend on the processing

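Of 186 alternative counts of called genes among the 8, 165 gave the same count or one within 1.5 times, and no called change of the 8 genes turned its direction. All alternatives kept the 7 called genes for exon counts with time and the 6 for intron counts with time. DESeq2 called 1 of 7 genes (RRM2) for exon counts with cisplatin at 72 h, against 0 by edgeR. The quasi-binomial form of the logistic regression, which adds the spread between libraries, called 0 genes in each of the 4 comparisons, in place of 2, 1, 3 and 3. Leaving out single libraries gave 0 to 2 calls of the edgeR ratio with time in DMSO, 0 to 1 with time in cisplatin, 0 to 2 of the logistic regression with cisplatin at 24 h and 1 to 2 at 72 h, and 2 to 3 and 2 to 4 with time in DMSO and in cisplatin. The causes of these changes were not tested. Of 1053 single values of the 8 genes, 1016 kept their call or, where neither value was called, lay within 1 standard error of the reported value, and 46 values past no threshold changed sign.

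Deviations of same-numbered libraries were at most weakly correlated (-0.108 to 0.102 over 24 pairs, highest with their own number in 9). For exon counts with time in cisplatin the correlations were all positive, at 0.0463 to 0.102. With 3 libraries per group these correlations cannot show whether same-numbered libraries share a batch, and the main tests used no pairing. With the replicate block the logistic regression called 2 of 7 genes with cisplatin at 72 h in place of 1, and no other count of called genes among the 8 changed.

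Over all genes, exon calls with cisplatin at 72 h were 3 in edgeR, 79 in DESeq2 and 154 without a filter on low counts, and between 0 and 72 when a library was left out. At 24 h they were 0, and 7 without that filter. Intron calls with cisplatin were 2 at 24 h and 4 at 72 h in edgeR, 0 and 2 in DESeq2, 5 and 19 without a filter, and 26 at 72 h in a fit to the 6 libraries. With a library left out they were 0 to 2 at 24 h and 3 to 9 at 72 h. At 24 h the block, and the scaling by exon counts, each left 0 intron calls. Ratio calls in edgeR at 72 h were 2, 13 with a minimum of 1 count, and 1 to 4 with a library left out. At 24 h they were 0, 2 and 0. The quasi-binomial regression called 0, 0, 64 and 97 genes in place of 1110, 1144, 3278 and 3984. With a library left out, the logistic regression called 245 to 1555 genes with cisplatin at 24 h and 729 to 1138 at 72 h, and edgeR called a changed ratio with time in 699 to 879 genes in DMSO and 638 to 1123 in cisplatin, in both lowest without replicate 2 at 72 h. Intron counts of TK1, RRM1, RRM2, DCK and SAMHD1, in part under 20 per library, limit what could be detected in introns and ratios.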
